A study of Mus musculus with 6 samples.

Results

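The set described here holds 9 of the 33696 features in the count matrices: Mrc1, Cd163, Folr2, Lyve1, Fcrls, Clec4n, Cd38, F13a1 and AA467197. They were picked by symbol, with the macrophage values of the same mice already known, as genes gained in kidney macrophages of DOCA-salt mice, so their macrophage levels and pairings are given below as a description and carry no test. The name macrophage receptors covers only some of them. Mrc1 (the mannose receptor CD206), Cd163 (the receptor for haemoglobin bound to haptoglobin), Folr2 (folate receptor beta), Lyve1 (a hyaluronan receptor) and Clec4n (Dectin-2, a C-type lectin that binds fungal mannans) are surface receptors, and Fcrls is a scavenger-type relative of the Fc receptor-like family. Cd38 is a surface enzyme that consumes NAD, F13a1 encodes the catalytic subunit of coagulation factor XIII, a transglutaminase that cross-links fibrin, and AA467197 (Nmes1) encodes a small mitochondrial protein whose transcript also carries the precursor of a microRNA.

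Macrophages are phagocytes that live in most organs and are also supplied from blood monocytes. Scavenger receptors and lectins let them bind sugars, lipoproteins, haemoglobin complexes and dying cells, and Mrc1, Cd163, Folr2 and Lyve1 are commonly used as markers of long-lived macrophages around vessels. In the kidney, macrophages lie between the tubules and increase in number in hypertensive injury.

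Single-cell RNA sequencing was performed on kidneys from 3 sham mice and 3 DOCA-salt mice, with 1 library for each mouse. All were male C57BL/6, and the age given, 8 to 10 weeks, is that at purchase. In the DOCA-salt mice the left kidney was removed and, a week later, a 50 mg pellet of deoxycorticosterone acetate (DOCA, a mineralocorticoid) was placed under the skin, followed by 1% NaCl in the drinking water for 21 days. Sham mice were operated on without removal of a kidney, received no pellet and drank normal water, so that nephrectomy, DOCA and salt cannot be told apart. The libraries held 11058 to 14449 barcodes and 93172739 to 137819127 unique molecular identifiers (UMIs, counts of distinct captured transcripts), and 55630 cells remained after filters on mitochondrial and haemoglobin transcripts and removal of likely doublets. Pairs of libraries had 33 to 69 barcodes in common.

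Macrophages were the clusters whose fixed markers (among them Adgre1, C1qa, C1qb, C1qc, Csf1r and Cd68) scored above those of every other cell type, and each of these was detected in each of them. They numbered 435 cells in sham mice (156, 138 and 141) and 1737 in DOCA-salt mice (434, 624 and 679). This was 1.42% to 1.79% of the cells of a sham mouse and 4.9% to 7.04% of those of a DOCA-salt mouse. Levels below are in CPM, the UMIs of a gene in all macrophages of a mouse scaled to a total of 1000000 UMIs in those macrophages. The sums held 550392 to 718446 UMIs in sham mice and 2111410 to 3733537 in DOCA-salt mice, so that a sham value rests on fewer counts. Markers of other cell types moved between these sums as well. Fibroblast markers summed to 0 to 1.82 CPM in sham and 13.3 to 25.4 CPM in DOCA-salt macrophages, neutrophil markers to 16.4 to 25.1 and 40.9 to 47.9 CPM, and proximal tubule markers to 3393 to 5016 and 1017 to 2683 CPM. Their part in the results below was not tested.

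The mannose receptor gene Mrc1 was by far the most abundant of the set in macrophages. It is encoded on the plus strand at chr2:14234151-14336926 (GRCm39) and its locus holds the microRNA gene Mir511. In sham mice its macrophage level was 228, 134 and 191 CPM, and in DOCA-salt mice 428, 476 and 431 CPM. Every DOCA-salt mouse lay above every sham mouse, and the ratio of the means (445 ± 27.2 against 184 ± 47.3 CPM, mean ± SD, n = 3 each) was 2.41. A UMI of Mrc1 was seen in 165 of 435 sham macrophages (37.9%) and in 1108 of 1737 DOCA-salt macrophages (63.8%). Depth differed, at a median of 3883 UMIs per sham and 4774 per DOCA-salt macrophage. When cells were reduced to 1000 UMIs to remove this difference, the shares with Mrc1 became 15% ± 3.27 and 32.2% ± 1.49 per mouse. Cells below 1000 UMIs were left out of these shares. In proximal tubule cells, which are not expected to express the gene, 0.15% of sham cells and 0.855% of DOCA-salt cells had an Mrc1 UMI at median depths of 9137 and 9412 UMIs, and such UMIs can come from RNA free in the suspension.

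**Figure D1:**
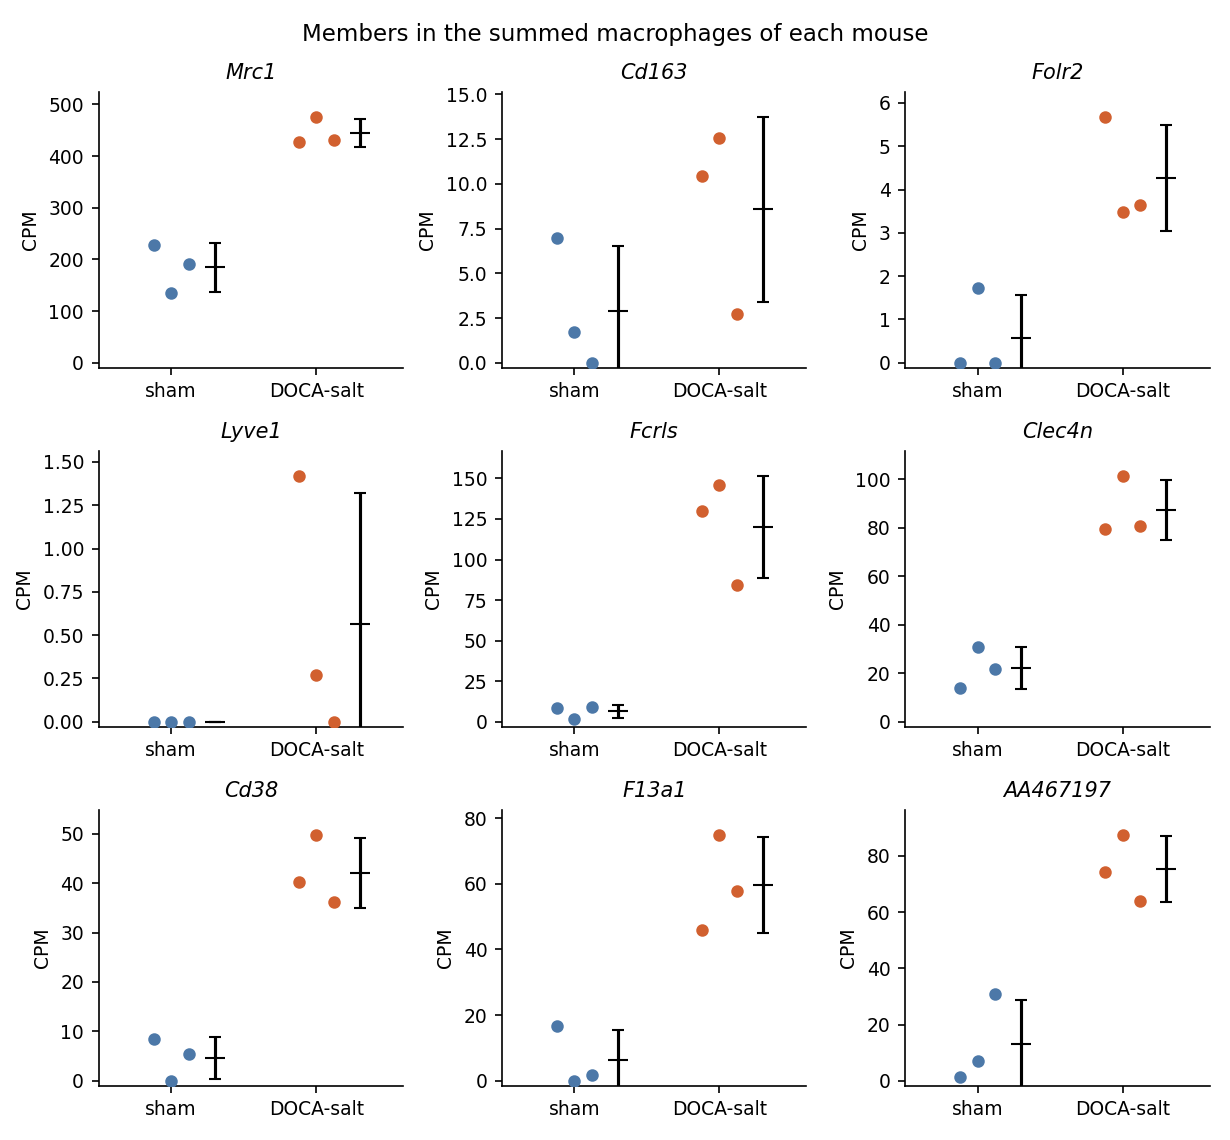
Level of each of the 9 genes (CPM, linear axes that differ between panels) in the summed macrophages of each mouse; each point is a mouse, and the black bar beside it is the mean with the SD of 3 mice, cut at the axis where it falls below 0. All 3 DOCA-salt points lie above all 3 sham points for 7 of the 9 genes, but not for Cd163 and Lyve1. This was true of 12.8% of the 20348 genes with a macrophage UMI, and the 9 were chosen on this contrast, so nothing is read from the count.

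The receptor genes Cd163, Folr2 and Lyve1 were scarce in macrophages. Cd163 (plus strand, chr6:124281606-124307560) gave 6.96, 1.72 and 0 CPM in sham macrophages and 10.4, 12.6 and 2.73 CPM in DOCA-salt macrophages, from 6 and 78 UMIs, and the groups overlapped. The ratio of its means was 2.96, or 9.96 without the first sham mouse. Folr2 (minus strand, chr7:101489195-101506401, 1135 bases from its paralog Folr1) was represented by 1 UMI in all sham macrophages and by 37 in DOCA-salt macrophages. Its levels were 0, 1.72 and 0 CPM against 5.68, 3.48 and 3.64 CPM. The ratio of the pooled Folr2 counts was 7.48, with a 95% counting interval of 1.26 to 304 that covers counting error only. Lyve1 (minus strand, chr7:110448585-110462460) was not seen in sham macrophages, which allows up to 1.62 CPM (3 counts in 1849481 UMIs), and DOCA-salt macrophages held 4 UMIs in 3 cells, at 1.42, 0.268 and 0 CPM. A gain of Lyve1 was not detectable at this depth, and that of Cd163 was not seen in every mouse.

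Fcrls was scarce in sham macrophages and abundant in those of DOCA-salt mice. The gene lies on the minus strand at chr3:87156616-87181827 and is named Fcrl2 in the GENCODE vM39 annotation. Sham macrophages held 8.35, 1.72 and 9.08 CPM of Fcrls (12 UMIs in 10 cells), and DOCA-salt macrophages 130, 146 and 84.6 CPM (1097 UMIs in 460 cells). The DOCA-salt mice were all far above the sham mice, with means of 120 ± 31.7 and 6.39 ± 4.06 CPM and a ratio of 18.8. In proximal tubule cells Fcrls was seen in 0 of 13995 sham cells and in 47 of 13685 DOCA-salt cells (0.343%), against 26.5% of DOCA-salt macrophages.

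Clec4n, in the lectin gene cluster at chr6:123206802-123223980 (plus strand, 15089 bases from Clec4d), was already measurable in sham mice. Its level was 13.9, 31 and 21.8 CPM in sham macrophages and 79.6, 102 and 80.7 CPM in DOCA-salt macrophages, a ratio of 3.92 without overlap. Cd38, the NAD-consuming enzyme at chr5:44025875-44069717 (plus strand), gave 8.35, 0 and 5.45 CPM in sham and 40.3, 49.8 and 36.1 CPM in DOCA-salt macrophages. The sham values of Cd38 rest on 9 UMIs in 7 cells, those of DOCA-salt mice on 390 UMIs in 262 cells, and the ratio was 9.14, or 15.4 without the first sham mouse.

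F13a1, the factor XIII subunit gene at chr13:37051152-37234277 (minus strand, with long non-coding RNA genes on the opposite strand that are counted apart), was at 16.7, 0 and 1.82 CPM in sham macrophages. In DOCA-salt macrophages it was at 45.9, 75 and 57.9 CPM. The groups did not overlap, with a ratio of 9.66, but 12 of the 13 sham UMIs came from the first mouse, and the ratio was 65.6 without that mouse. AA467197 (plus strand, chr2:122478879-122483519, host of Mir147) spread widely among sham mice, at 1.39, 6.89 and 30.9 CPM, and reached 74.4, 87.6 and 64 CPM in DOCA-salt mice. Its ratio was 5.77, or 18.2 without the third sham mouse, which held 17 of the 22 sham UMIs.

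In all, 7 of the 9 genes were higher in every DOCA-salt mouse than in every sham mouse. Over the 20348 genes with a macrophage UMI this was true of 12.8%, and since the genes were chosen on this contrast nothing is read from the difference. In a negative binomial fit across all genes (edgeR quasi-likelihood), 6 of the 9 passed the filter on low counts. Their log2 differences, given as a description, were 4.13 for Fcrls, 3.03 for F13a1, 3.03 for Cd38, 2.57 for AA467197, 1.93 for Clec4n and 1.19 for Mrc1. Genes that passed that filter could do so through the DOCA-salt group alone. In this fit 266 of the 9084 genes tested (2.93%) were higher and 284 (3.13%) lower in DOCA-salt macrophages at an adjusted p under 0.05, or 333 and 223 when only library sizes were used for scaling.

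Since macrophages were also more numerous, macrophages carrying these transcripts differed more widely as a share of the kidney suspension. Those with an Fcrls UMI made up 0.506, 0.13 and 0.403 per 1000 cells in sham mice and 13.6, 21.1 and 14.2 per 1000 cells in DOCA-salt mice. Macrophages with an Mrc1 UMI made up 7.39, 5.58 and 4.93 per 1000 against 32, 43.5 and 42.2 per 1000. For F13a1 the DOCA-salt values were 3.95, 7.59 and 5.08 per 1000 cells, and in sham mice they were 0.405, 0 and 0.101.

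The macrophages fell into 9 clusters, found without using the 9 genes, and the mice differed in which clusters they held. A cluster led by Ccl4, Ccl3 and Mmp13 beside complement genes (i1) held 56.8% ± 3.34 of the macrophages in sham mice but 4.38% ± 2.13 in DOCA-salt mice. Clusters led by Ms4a7 and Adgre1 (i7), by Ccl12 and Ccl7 with Mrc1 itself among its leading genes (i5), by Cybb and Ccl4 (i6), and by Mmp12 and Lyz2 (i23) each held a larger share in every DOCA-salt mouse than in any sham mouse. For i5 the shares were 9.62%, 6.52% and 7.09% in sham and 17.3%, 25.3% and 14.9% in DOCA-salt mice, and for i23 they were 0%, 2.17% and 0.709% against 7.83%, 8.01% and 7.36%. A cluster of shallow cells with a median of 776 UMIs (c16) held 2 sham and 166 DOCA-salt macrophages.

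The 9 genes did not share a cluster. In DOCA-salt macrophages 435 of the 568 F13a1 UMIs, 68 of the 78 Cd163 UMIs and all 4 Lyve1 UMIs lay in i5, which held 334 of the 1737 cells. Mrc1 and Cd38 were also highest there, at 901 and 89.6 CPM with the mice pooled, and Fcrls reached 207 CPM. AA467197 had only 3 UMIs in i5 (1.54 CPM) but 603 of its 695 UMIs in i23, at 397 CPM, and Clec4n was likewise highest in i23, at 302 CPM against 76.8 CPM in i5. Fcrls lay between 79.1 and 207 CPM in i5, i6, i7, i17, i23 and c16, but at 23.5 CPM in i10, 5.78 CPM in i1 and 3.92 CPM in i8. i23 was also the deepest cluster, with a median of 9975 UMIs per cell.

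**Figure D2:**
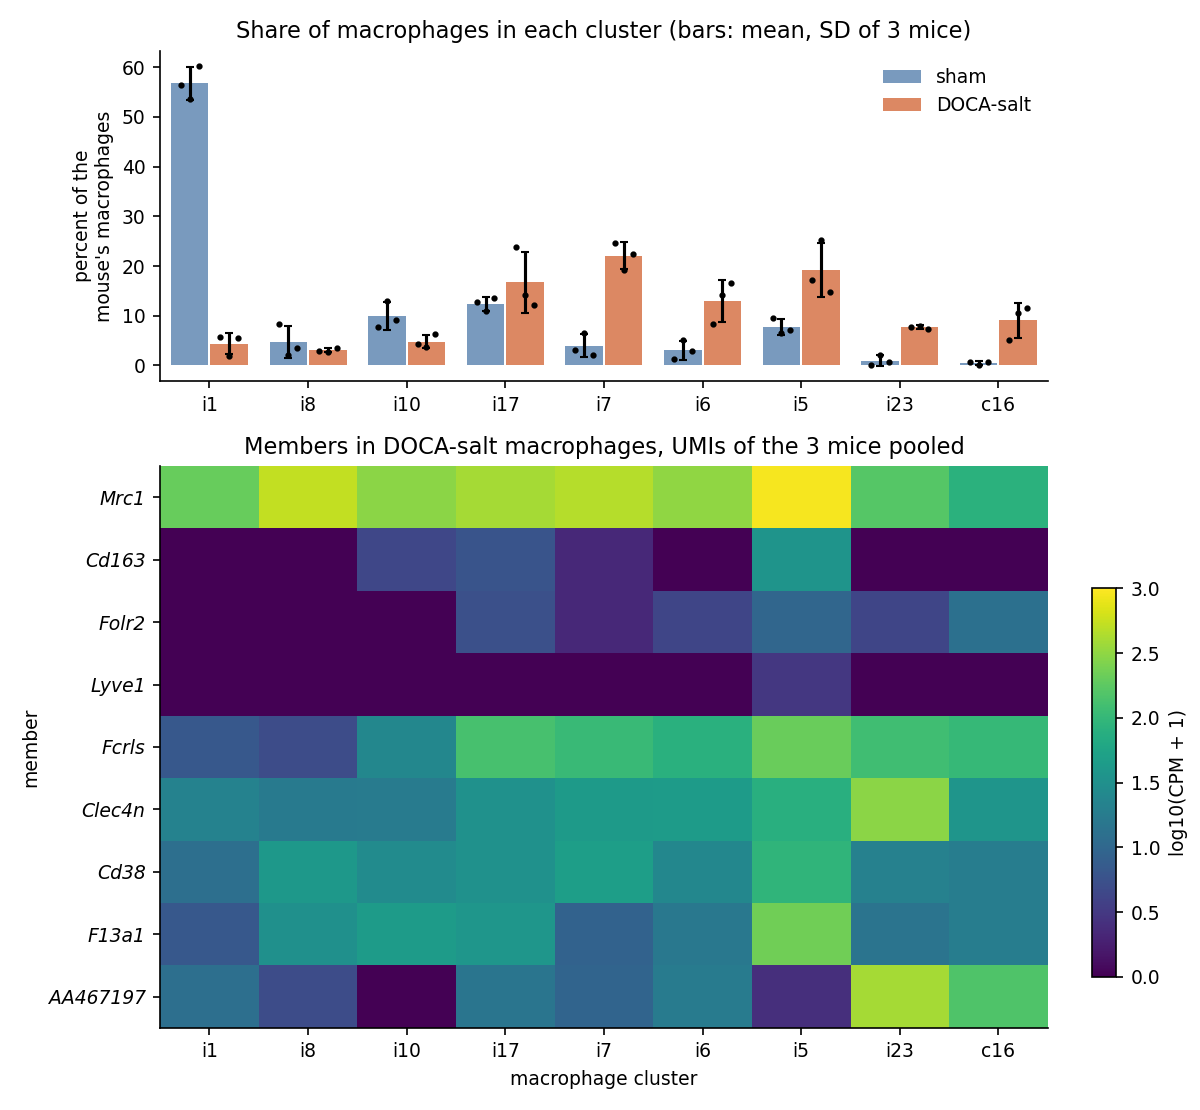
Top, percent of each mouse's macrophages in each cluster (bars, mean and SD of 3 mice; dots, mice); bottom, log10(CPM + 1) of each gene in DOCA-salt macrophages of each cluster with the UMIs of the 3 mice pooled. F13a1, Cd163 and Mrc1 peak in i5, while AA467197 and Clec4n peak in i23, and i1 holds most sham macrophages but few DOCA-salt ones.

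Only i1, i10 and i17 had at least 10 macrophages in every sham mouse, which allows the levels to be set side by side within a cluster. In i17, a cluster led by Ccl3 and Cxcl2, Fcrls stood at 21.2, 0 and 29.3 CPM in sham mice and at 139, 134 and 122 CPM in DOCA-salt mice. Mrc1 in the same cells was at 254, 240 and 293 CPM against 442, 326 and 417 CPM, and Cd38 at 0, 0 and 0 against 32, 27.2 and 38.1 CPM. In i17 these 3 genes were higher in every DOCA-salt mouse, where the 54 sham cells held 4 Fcrls and 0 Cd38 UMIs. The share of all genes without overlap within a cluster was not counted. Since the genes were chosen on this contrast, nothing is read from these orders within i17 or i10. Clec4n overlapped there, at 31.8, 0 and 14.6 against 29.9, 38.9 and 25.4 CPM, and so did AA467197, at 0, 18.5 and 0 against 10.7, 9.71 and 22.9 CPM. In i10, a cluster of shallow cells led by C1qa and C1qc, Fcrls was at 0 CPM in every sham mouse and at 12, 45.9 and 9.43 CPM in DOCA-salt mice, from 7 UMIs. Mrc1 in i10 was at 65.1, 64.1 and 56.3 CPM against 228, 432 and 217 CPM without overlap, while Cd38 overlapped, at 32.6, 0 and 0 against 12, 45.9 and 18.9 CPM. In i1, which held most sham macrophages, all 3 genes overlapped. There Mrc1 was at 147, 118 and 118 CPM in sham and 119, 252 and 230 CPM in DOCA-salt mice, Fcrls at 7.58, 0 and 3.19 against 0, 0 and 11.8 CPM, and Cd38 at 5.05, 0 and 0 against 9.9, 0 and 17.7 CPM.

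Seen cell by cell, the genes formed partly separate combinations. No UMI of any of the 9 was found in 47.4%, 60.1% and 57.4% of the macrophages in the sham mice and in 22.1%, 21% and 29.2% of those in DOCA-salt mice, which were also deeper. At least 4 of the 9 were seen in 1.28%, 0% and 0% of sham and in 8.29%, 10.4% and 3.83% of DOCA-salt macrophages. No cell held Mrc1, Cd163, Folr2 and Lyve1 together, but Lyve1 was seen in only 3 macrophages, so nothing is read from that. Of the 157 DOCA-salt macrophages with an F13a1 UMI, 141 (89.8%) also held Mrc1 and 87 (55.4%) held Fcrls. Of the 50 with Cd163, 49 held Mrc1, 39 held Fcrls and 35 held F13a1. AA467197 differed in part, since 55 of its 114 cells held Clec4n, 45 held Mrc1 and 2 held F13a1, and 49 of the 55 cells with Clec4n and AA467197 belonged to i23. Fcrls was seen in 36 of the 114 (31.6%), beside 26.5% of all DOCA-salt macrophages.

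Cells were also reduced to 1000 UMIs to remove the depth differences, among cells of at least that depth. Left out as shallower were 5, 8 and 5 macrophages of the sham and 22, 57 and 75 of the DOCA-salt mice. Fcrls and Mrc1 were then both seen in 4.02% ± 1.37 of DOCA-salt macrophages, where the product of their shares is 3.02%, and F13a1 and Mrc1 in 2.35% ± 0.656 against 1.27%. Clec4n and AA467197 were both seen in 0.555% ± 0.21, against a product of 0.132%. For this pair the product corresponds to only 0.533 and 0.845 cells in the first and second DOCA-salt mice, and no ratio was formed. AA467197 and Mrc1 were both seen in 0.242% ± 0.119 of cells, where the product is 0.85%. Fcrls and AA467197 changed sides with depth. They were seen together in 1.99% of cells against a product of 1.78% before the reduction, and in 0.134% ± 0.0955 against 0.246% after it. Shares in sham macrophages were too low for such ratios, with F13a1 and Mrc1 together in 0.19% ± 0.329 of cells.

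**Figure D3:**
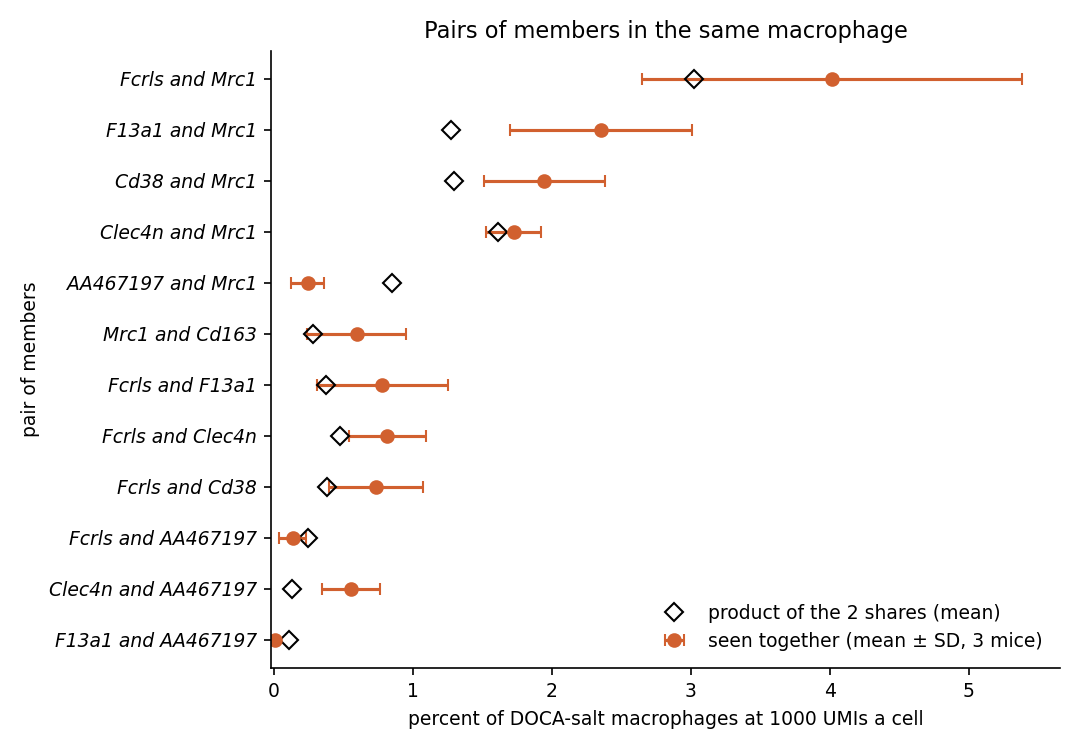
Percent of DOCA-salt macrophages in which both genes of a pair were seen (filled points, mean ± SD of 3 mice) and the product of the shares of the 2 genes (open diamonds, mean). Each cell was reduced to 1000 UMIs, and cells below that depth are left out. Clec4n with AA467197 and F13a1 with Mrc1 lie to the right of their products, and AA467197 with Mrc1 lies to the left. The product for Clec4n with AA467197 corresponds to very few cells.

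The pattern of each gene over the macrophage clusters was compared with those of 5643 genes, using 27 sums of a cluster in a mouse with at least 20 cells, 23 of them from DOCA-salt mice. These sums share libraries, clusters and depth, so the Pearson coefficients of log2(CPM + 1) are descriptive. Mrc1 was most like Aoah (r = 0.896), Dab2 (0.886), an adaptor of receptor endocytosis, and Rnf150 (0.858). Fcrls was most like Ctsb, encoding the lysosomal protease cathepsin B (r = 0.825), Lyz2 (0.786) and Apoe (0.78). F13a1 was most like the chemokine gene Ccl8 (r = 0.752), Itsn1 (0.727) and Fcrls (0.697). Clec4n was most like Cfp, the complement regulator properdin (r = 0.802), Lyz2 (0.793) and Ostc (0.771), and Cd38 was most like Cd93 (0.758), Sntb2 (0.754) and Otulinl (0.746). AA467197 was most like Myl6 (r = 0.863), Aprt (0.85) and Fth1 (0.818), encoding ferritin heavy chain, and its coefficient with Mrc1 was -0.55. The scarce genes gave lower values. Cd163 was most like Vmp1 (r = 0.699), Mrc1 (0.659) and Selenop (0.639), Folr2 most like H1f2 (0.663), Gm56663 (0.599) and Socs3 (0.593), and Lyve1, with 4 UMIs, most like Stab1 (0.514), Selenop (0.506) and Rhob (0.482).

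Across the cell types of the kidney, only Fcrls and Mrc1 had their highest mean level in macrophages in both groups, and for Fcrls in sham mice (6.39 ± 4.06 CPM) the next type, monocytes, lay within the spread with a single UMI. F13a1 was higher in monocytes (287 ± 113 CPM in sham, 330 ± 232 in DOCA-salt) than in macrophages of either group (6.17 ± 9.16 and 59.6 ± 14.6 CPM). Clec4n and AA467197 were highest on average in neutrophils, where 44 DOCA-salt cells held 91 and 33 UMIs, but the mice spread from 39.6 to 1855 CPM for Clec4n, so that the order against macrophages (87.2 ± 12.4 CPM) is not resolved. AA467197 in DOCA-salt dendritic cells (118 ± 30.9 CPM) also lay above its macrophage level (75.3 ± 11.8 CPM). Cd38 was foremost an endothelial transcript, at 107 ± 39 CPM in sham and 170 ± 17.4 CPM in DOCA-salt endothelium. Endothelial cells gave 88.8% of all Cd38 UMIs in sham mice and 80.3% in DOCA-salt mice, where macrophages gave 10.1%.

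Folr2 and Lyve1 were mostly found outside macrophages. Of the Folr2 UMIs, 94.4% in sham and 88.2% in DOCA-salt mice came from proximal tubule cells, at 13.9, 9.57 and 8.43 CPM against 8.98, 11.8 and 9.35 CPM. The proximal tubule level lay above the DOCA-salt macrophage level of 4.27 ± 1.23 CPM in every mouse. Lyve1 was highest in smooth muscle cells or pericytes (12.3 ± 4.38 and 7.8 ± 4 CPM, from 20 and 14 UMIs), followed by fibroblasts. Cd163 in the same smooth muscle and pericyte cells (4.74 ± 4.97 and 6.63 ± 1.53 CPM) did not differ from macrophages beyond the spread between mice. A cycling cluster of 51 immune cells, which was kept apart from macrophages, belonged mostly to DOCA-salt mice, and all cycling cells of those mice together held 123 AA467197, 120 Mrc1, 61 Clec4n, 41 Fcrls and 40 F13a1 UMIs.

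**Figure D4:**
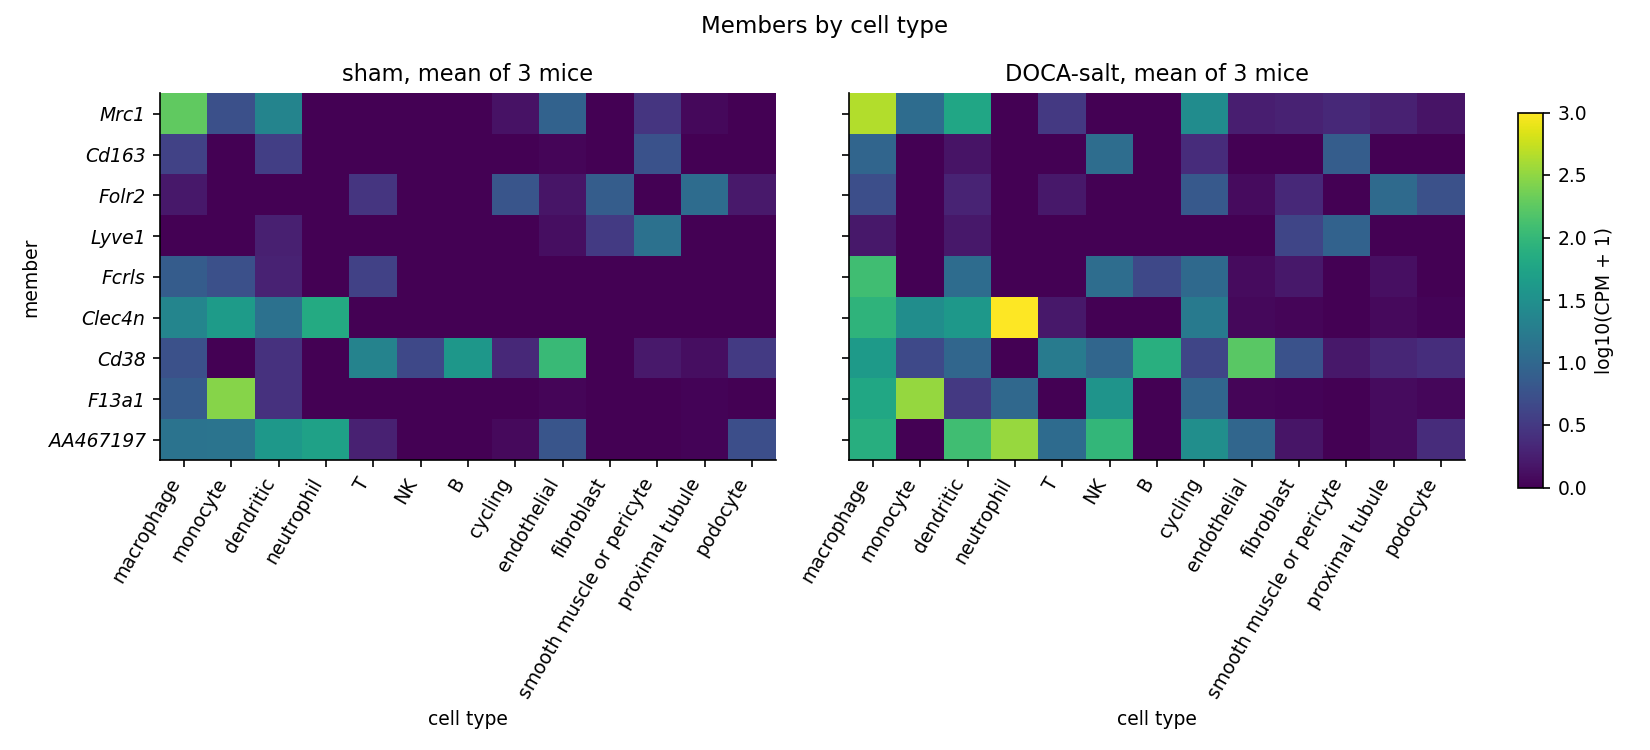
Mean level of each gene over 3 mice, as log10(CPM + 1), in 13 cell types of sham (left) and DOCA-salt mice (right). Mrc1 and Fcrls are brightest in macrophages, F13a1 in monocytes, Cd38 in endothelial cells, Folr2 in the proximal tubule and Lyve1 in smooth muscle cells or pericytes.

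The choice of the genes used sums over the immune cell types of these mice, so their values in monocytes, dendritic cells and lymphocytes are also a description with no test. In monocytes only F13a1 passed the filter on low counts. Its level was 384, 162 and 315 CPM in sham mice and 490, 63.8 and 436 CPM in DOCA-salt mice, and the groups overlapped. The fitted log2 difference was 0.14 (SE 0.52), and it ran from -0.26 to 0.69 with each mouse left out. These sums rest on 45 sham and 41 DOCA-salt monocytes. No gene passed in monocytes, 0% of 1429 tested by edgeR, with 82 at an unadjusted p under 0.05 and 0 by DESeq2.

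In dendritic cells 3 of the 9 genes passed the filter. AA467197 was at 68.4, 29.7 and 19.6 CPM in sham and 84.8, 146 and 124 CPM in DOCA-salt mice, without overlap (fitted log2 difference 1.65). Mrc1 was at 29.9, 9.92 and 25.2 CPM against 32.6, 67 and 78.2 CPM (1.49), also without overlap, and Clec4n overlapped, at 34.2, 0 and 2.8 against 44, 62 and 10.8 CPM (1.94). The Clec4n difference was 4.60 without the first sham mouse, 1.19 without the second and 0.36 with cells limited to 20% mitochondrial UMIs. Over all genes 0.157% of 5739 tested passed edgeR's threshold in dendritic cells, and nothing is read from the 0 of 3 that did so here. The share of all genes without overlap in dendritic cells was not counted, and nothing is read from these orders either. Macrophage markers summed to 1103, 1026 and 1029 CPM in the dendritic cells of sham mice and to 1022, 1099 and 1551 CPM in those of DOCA-salt mice, and their part in these differences was not tested.

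Endothelial cells lie outside the immune types, and there the genes were tested on the summed counts of each mouse with edgeR's quasi-likelihood test, adjusted over all genes tested (Benjamini-Hochberg). In endothelial cells 3 of the 9 could be tested, where 11.7% of 12798 genes passed in either direction and 4.84% were lower in DOCA-salt mice. Mrc1 went the opposite way to its macrophage level, at 4.07, 14 and 4.91 CPM in sham and 0.189, 0.807 and 1.4 CPM in DOCA-salt mice (log2 difference -3.14, SE 0.60, edgeR adjusted p = 0.00706). This call rested on few cells. The 73 sham UMIs lay in 18 of 1587 endothelial cells, with up to 14 in a single cell, while the 15 DOCA-salt UMIs lay in 14 of 2164 cells. When likely doublets were kept, the difference turned to 0.50 (edgeR adjusted p = 0.742), and with cells limited to 20% mitochondrial UMIs it was -2.42 (adjusted p = 0.0675 in the same test). The share of endothelial cells with an Mrc1 UMI was 1.13% in sham mice, above the 0.15% of the proximal tubule. In DOCA-salt mice it was 0.647%, below the 0.855% of the proximal tubule. These shares are at unlike depth, with endothelial medians of 3428 to 4032 UMIs in sham and 5524 to 6884 in DOCA-salt mice, against 9137 and 9412. In the second DOCA-salt mouse 42 proximal tubule cells held at least 5 of the 9 macrophage markers. Whether the DOCA-salt endothelial value is background was not tested. In the main endothelial cluster (c4) Mrc1 overlapped, at 0, 21.6 and 5.46 CPM in sham against 0.295, 0.903 and 1.2 CPM in DOCA-salt mice. Its 27 sham UMIs there lay in 4 cells. In the other large cluster (c5) it did not overlap, at 6.24, 10 and 4.43 against 0, 0.548 and 2.03 CPM. The part of the cluster shares in the Mrc1 difference was not tested.

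Cd38 in endothelial cells stood at 96.6, 150 and 74.3 CPM in sham and 177, 150 and 183 CPM in DOCA-salt mice. The second sham and second DOCA-salt mouse were level, so that the groups overlapped (log2 difference 0.69, SE 0.20, edgeR adjusted p = 0.0515). DESeq2 called this difference (DESeq2 adjusted p = 0.0224), and edgeR did so without the second sham mouse (log2 difference 1.00, adjusted p = 3e-04). Over all settings the adjusted p lay between 2.58e-05 and 0.215. The main endothelial cluster (c4) held 831 sham and 1566 DOCA-salt cells, with Cd38 at 185 ± 66.3 and 204 ± 27.4 CPM, and the other large cluster (c5) held 661 and 400 cells at 70.1 ± 19.7 and 92.2 ± 5.73 CPM. Within c4 and within c5 the groups overlapped. In the remaining, shallow cluster (c23) they did not, at 20.4, 0 and 16.6 against 95.8, 28.1 and 61.2 CPM, from 2 and 9 UMIs. The part of the cluster shares in the Cd38 difference was not tested. AA467197 in endothelial cells was at 4.34, 8.2 and 3.18 against 5.85, 8.34 and 11.9 CPM (log2 difference 0.78, SE 0.36, edgeR adjusted p = 0.213). The macrophage marker C1qa stood at 0.342 to 3.53 CPM in the endothelial sums of sham mice and at 6.23 to 12.9 CPM in those of DOCA-salt mice, and its part in these differences was not tested.

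**Figure D5:**
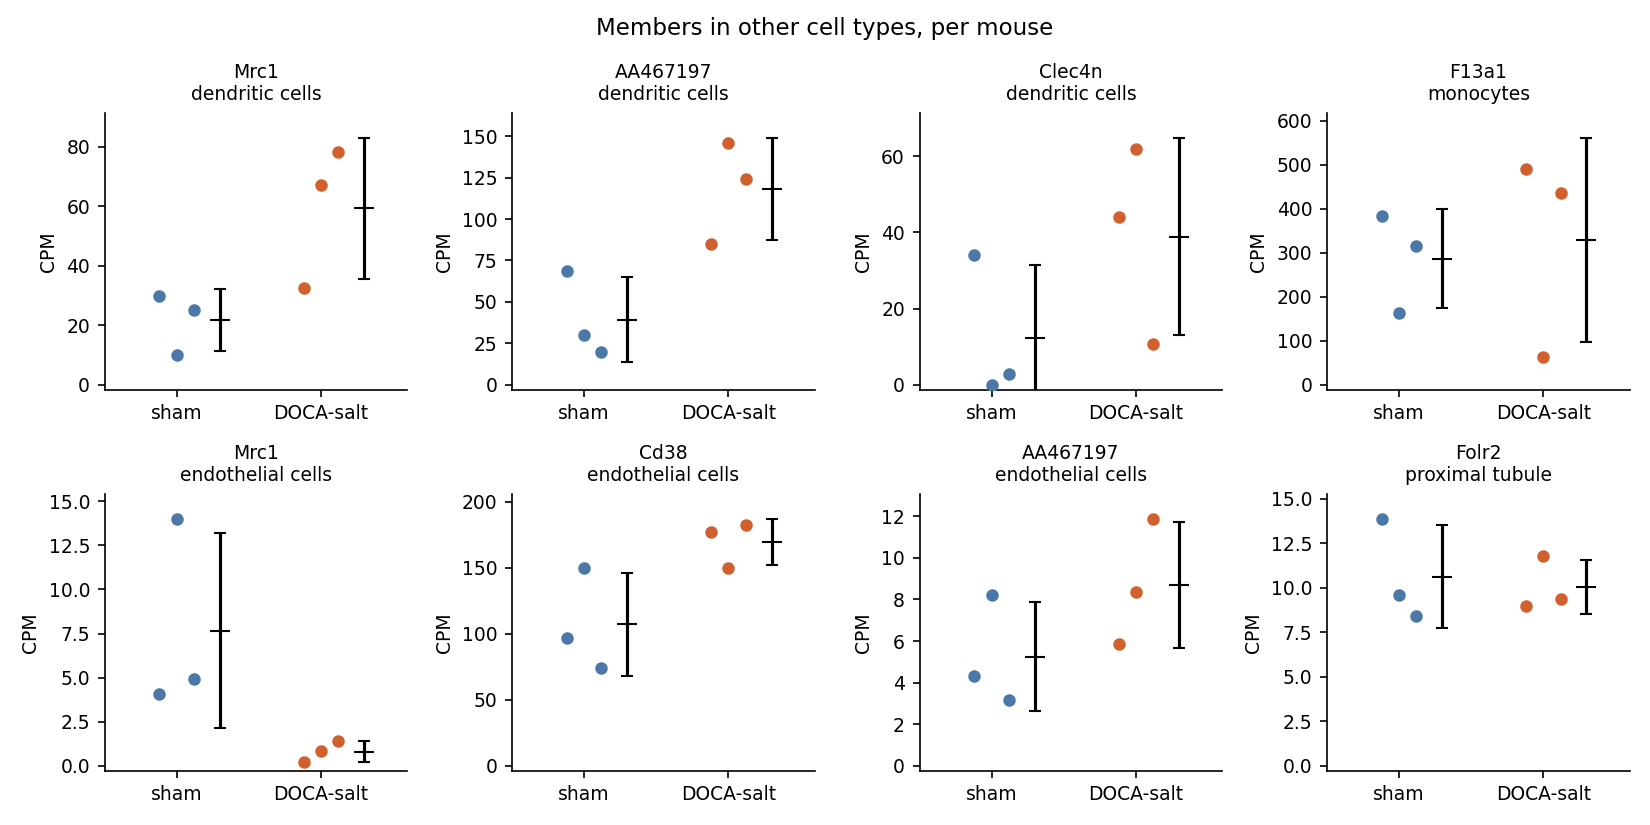
Level (CPM, linear axes that differ between panels) of the genes that passed the filter on low counts outside macrophages, and of Folr2 in the proximal tubule, in each mouse; points are mice, and black bars show the mean with the SD of 3 mice, cut at the axis where it falls below 0. Mrc1 is lower in all 3 DOCA-salt mice in endothelial cells, AA467197 is higher in all 3 in dendritic cells, and the other panels overlap except Mrc1 in dendritic cells. The share of all genes without overlap was not counted in these cell types.

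Lymphocytes gave no test of the 9 genes. In T cells (1.04% of 6147 genes passed) and in B cells (0.0566% of 1767) none of the 9 cleared the filter on low counts. Cd38, which also occurs on lymphocytes, was at 29.2, 16.5 and 17.7 CPM in sham and 11.8, 13.8 and 25 CPM in DOCA-salt T cells. Natural killer cells were not fitted because 2 DOCA-salt mice had 6 and 8 of them.

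Genes related to the 9 by family, position or role moved as well, and these were not members of the set. Of 66 such genes in 5 lists, 48 could be tested in macrophages, 20 were higher and 3 lower in DOCA-salt mice (edgeR adjusted p under 0.05), and their median log2 difference was 0.55 beside 0.0023 over all genes tested. The number higher was 12 without the first or without the third sham mouse, 13 without the first DOCA-salt mouse, and 14 with the replicate number as a block. These lists were drawn up with earlier results known and support nothing by themselves. Among 11 tested scavenger and engulfment receptors 6 rose and 1 fell. Trem2, a lipid receptor, was at 66.8, 36.2 and 32.7 CPM in sham and 222, 259 and 203 CPM in DOCA-salt macrophages (log2 difference 2.23, SE 0.22, edgeR adjusted p = 3.27e-05). Mertk, a receptor for dying cells, rose by 1.36 (SE 0.18, adjusted p = 0.000509 in edgeR). Cd36, a receptor for oxidised lipoproteins and fatty acids, fell by 0.84 (SE 0.15, edgeR adjusted p = 0.00252), from 579 ± 54.6 to 341 ± 23.4 CPM.

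Of 6 Fc receptor genes, all tested, 3 rose, and Fcgr1, the high-affinity IgG receptor, gave the largest change (log2 difference 1.32, SE 0.19, edgeR adjusted p = 0.000614). Among 13 tested kin and neighbours of the 9 genes, the lectins Clec4d, Clec4a2, Clec4a1 and Clec4a3, relatives of Clec4n, rose and 2 genes fell. The relatives Clec4b1 and Clec4e were not called (edgeR adjusted p = 0.175 and 0.569). The Clec4d call held in 9 of 14 settings and that of Clec4a1 in 11. Cd44, a hyaluronan receptor like Lyve1, dropped from 704 ± 90.5 to 383 ± 23.4 CPM (log2 difference -0.96, SE 0.15, edgeR adjusted p = 0.00148). Folr1, the neighbour of Folr2, was lower by edgeR (log2 difference -0.92, SE 0.22, adjusted p = 0.0236), and this call was lost in 5 of 14 settings. Proximal tubule markers in the same sums were lower too, at 3393 to 5016 CPM in sham and 1017 to 2683 CPM in DOCA-salt mice. Their part in the Folr1 difference was not tested. Only 1 of 7 other myeloid C-type lectins, Clec12a, rose, and its call held in 8 of 14 settings. Clec12a and the relatives of Clec4n are named here after their values were seen.

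The list of genes that usually accompany Lyve1 in tissue macrophages was also higher. Of its 11 tested genes 6 rose and none fell. Igf1, a growth factor gene, rose by 1.49 on the log2 scale (SE 0.22, edgeR adjusted p = 0.000787), and Ltc4s, the leukotriene C4 synthase gene, by 2.15 (SE 0.46, adjusted p = 0.0106), a call lost without the first sham mouse (edgeR adjusted p = 0.0605). Ccl8 was called by edgeR (1.69, SE 0.46, adjusted p = 0.0391) but not in 7 of 14 settings, and sham mice spread from 14.5 to 129 CPM. With 4 Lyve1 UMIs in DOCA-salt macrophages, the gene that names this list was itself nearly undetected. Genes of the response to tissue dissociation, such as Fos and Jun, were summed at 13848 to 18567 CPM in sham and 13466 to 17502 CPM in DOCA-salt macrophages, and of 10 tested 1 fell and none rose.

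The bases before the start sites of 7 of the 9 genes were available from RefSeq (GRCm39), all but Clec4n and Lyve1. They were searched on both strands for the core of the site of PU.1, a factor of the myeloid lineage (GAGGAA, present in 23.3% of 32851 windows of 250 bases before a start), for the AP-1 site (TGANTCA, 6.75%) and for a steroid receptor inverted repeat (ACANNNTGT, 5.84%). Mrc1, Fcrls and F13a1 held the PU.1 core, AA467197 and Folr2 the AP-1 letters, and none the third motif. The AA467197 window lies inside the gene span, and all its 250 bases are exon, as are those of the Cd38 window. Folr2 held the AP-1 letters only before a start inside its gene span, and the window at its 5′ end held none. The stretches around the PU.1 letters are shown as bases of the gene's own strand that no annotated exon covers. The motif or its reverse complement is in capitals. The Fcrls stretch precedes a start in RefSeq that lies inside the gene span given above, not at its 5′ end, and 177 of the 250 bases of its window are exon. A match describes letters and is no evidence of binding.
Mrc1, chr2:14233975-14234150, plus strand: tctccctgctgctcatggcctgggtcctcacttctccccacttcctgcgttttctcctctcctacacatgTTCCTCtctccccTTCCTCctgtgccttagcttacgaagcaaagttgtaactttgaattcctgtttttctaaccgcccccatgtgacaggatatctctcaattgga
F13a1, chr13:37234278-37234470, minus strand: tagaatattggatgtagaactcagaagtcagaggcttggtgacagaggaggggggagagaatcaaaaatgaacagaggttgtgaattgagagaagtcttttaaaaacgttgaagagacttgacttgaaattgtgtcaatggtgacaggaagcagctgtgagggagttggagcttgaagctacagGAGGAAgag
Fcrls, chr3:87170948-87170984, minus strand: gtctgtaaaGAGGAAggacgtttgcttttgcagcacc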

How the data were processed

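Libraries were made from dissociated kidneys with the 10x Genomics 3′ v3.1 kit. The deposited matrices hold raw UMI counts per gene and barcode that the authors produced with Cell Ranger (9.0.0 per the labels, 8.0.1 per the file headers) on GRCm39. The annotation release is not given in the sources used here. Barcodes with at least 170 genes and 500 UMIs and at most 50% mitochondrial and 5% haemoglobin UMIs were kept, and the highest Scrublet scores were removed at 0.8% per 1000 barcodes (4931 of 60561). Cells were clustered with scanpy 1.11.5 (2000 variable genes without the 9 genes, 30 components, 15 neighbours, Leiden resolution 1), without batch integration, so cluster names may differ from the study's. For cell types with at least 10 cells in every mouse, the UMIs of each mouse were summed and tested with edgeR 4.0.16 (TMM, filterByExpr, quasi-likelihood, Benjamini-Hochberg over all genes tested) or, as an alternative, DESeq2 1.42.0. The method was tested on simulated counts. An SE given with a log2 difference was derived from edgeR's test, as the size of the difference over the square root of the test's F statistic. Counts were reduced to 1000 UMIs per cell by the hypergeometric chance of seeing a gene, without the cells that held fewer. Correlations used cluster-by-mouse sums of at least 20 cells and genes of at least 20 CPM on average, naming the 3 most alike. Of the related lists, the text names in each direction the 6 called genes with the largest change and a mean of at least 20 CPM. Part of the macrophage marker list is not reported here. Members, lists and rules were chosen with earlier results of these data known. The mice are separate animals, and p-values cover the spread between 3 mice a group.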

Additional observations from a re-analysis of the deposited data

Results flagged for a closer look

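Mrc1 differed in opposite directions in macrophages and endothelial cells. Every DOCA-salt mouse lay above every sham mouse in macrophages (log2 ratio of mean CPM 1.27) and below every sham mouse in endothelial cells (log2 ratio -3.26). The difference between the cell types was not tested. The endothelial values rest on 73 UMIs in 18 sham cells and 15 UMIs in 14 DOCA-salt cells, and with likely doublets kept the fitted endothelial difference was 0.50 on the log2 scale. Within the main endothelial cluster (c4) the groups overlapped, since the first sham mouse had no Mrc1 UMI there.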

How the results depend on the processing

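The choice of the 9 genes used the immune cell types, so counts of these genes called there describe the settings and carry no test. In dendritic cells the number called was 0, against 1 with DESeq2, 3 without the filter on low counts and 1 without doublet removal. With each mouse left out it was 0 to 1. In endothelial cells it was 1, and it was 2 with DESeq2, 3 without the filter, 0 with a 20% mitochondrial limit, 0 without doublet removal, and 1 to 3 when each mouse was left out. Monocytes, T cells and B cells gave 0 in every setting, including every mouse left out. In the main setting none of the 9 could be called in T or B cells, since none passed the filter. Natural killer cells had too few cells for any fit. Mrc1 in endothelial cells reversed to 0.50 without doublet removal, and the cause was not tested. Related genes higher in macrophages numbered 20, and 12 to 18 when each mouse was left out; 3 were lower, and 2 to 3 with each mouse left out. Over all genes, macrophage calls numbered 266 higher and 284 lower, 567 and 376 without the filter, and 151 and 147 with the replicate number as a block. Endothelial calls fell from 876 and 619 to 457 and 309 with that replicate block, to 330 and 207 with the 20% limit, and to 566 and 478 at Leiden resolution 2, and they numbered 1282 and 936 without the filter. With each mouse left out, macrophages gave 142 to 310 higher and 132 to 335 lower, and endothelial cells 455 to 1375 and 327 to 1178. Dendritic cells gave 7 and 2, against 13 and 4 with DESeq2 and 58 and 33 without the filter, T cells 42 and 22, against 18 and 11 with the replicate block, 23 and 14 with the 20% limit and 144 and 60 without the filter, and B cells 1 and 0, against 0 to 2 and 0 to 5. Same-numbered mice did not deviate together (r = -0.10, -0.29 and -0.08), and no mouse correlated best with its own number. Deviations within groups of 3 mice cannot exclude shared handling of same-numbered mice. With the replicate block 14 related genes were higher and 3 lower, and Mrc1 stayed the 1 gene of the set called in endothelial cells. Of the macrophage ratios, the 20% limit moved Clec4n from 3.92 to 7.93, F13a1 from 9.66 to 29.1, Cd38 from 9.14 to 17.4, AA467197 from 5.77 to 8.76 and Cd163 from 2.96 to 7.37. Leiden resolution 2 gave 15.6 for Cd38, 10.1 for AA467197 and 5.62 for Clec4n, and no doublet removal gave 10.1 for AA467197 and 5.88 for Clec4n. Macrophages defined by markers alone gave 5.31 for F13a1. The 8 ratios stayed above 1 wherever a ratio could be formed, and since the genes were chosen on this contrast nothing is read from that. Folr2 had no ratio without the second sham mouse, which held its only sham macrophage UMI. Sham macrophage sums of 550392 to 718446 UMIs limit Folr2, Cd163 and Lyve1.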
